A study of Mus musculus with 6 samples.

Results

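The genes described here are 8 markers and regulators of the mesenchymal transition, namely Cdh2, Vim, Fn1, Snai1, Snai2, Twist1, Zeb1 and Zeb2. They were chosen by name, with earlier results of these data known. All 8 had a row among the 17110 genes of the authors' deposited table. The study compared mouse embryonic stem cells of the line labelled TG2A, grown in serum with leukemia inhibitory factor, that carry a reporter in which MERVL drives a fluorescent protein (genotype MERVL::Fluorescent protein). MERVL is an endogenous retrovirus that is active in the early cleavage embryo and in few cultured stem cells at a time. Cells were sorted by fluorescence into MERVL::DsRed2+ and MERVL::DsRed2- groups of 3 samples each, with replicates taken on different dates. All samples come from 1 line that carries the reporter, and the groups share the labelled genotype.

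Values come from the authors' deposited table, which holds 1 fold change per gene and no value per sample. That table names no groups and no reference. It was taken to compare the sorted groups because the labels list no others, a reading that the table itself does not settle. The sign of each fold change is given as deposited, so a negative value says only that the gene was lower in one sorted group, not which one. Levels in each library and the spread between replicates are not analysed here, because the columns of the count table match no sample label. The standard error of each fold change (written ± SE after it) was derived from the libraries by the authors' model. It is not the observed spread between replicates and cannot show whether 1 library decides a value.

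During an epithelial to mesenchymal transition, cells take down the junctions that hold an epithelium together and acquire a motile, matrix-producing state. The zinc-finger factors of the Snail and Zeb families repress epithelial genes through short DNA elements called E-boxes, and Twist1, a basic helix-loop-helix factor, acts in the same programme. N-cadherin (Cdh2), the intermediate filament protein vimentin (Vim) and the matrix glycoprotein fibronectin (Fn1) are the classical products of the mesenchymal state. Embryonic stem cells resemble an epithelium in their reliance on E-cadherin, and the transition takes place in the embryo when cells leave the epiblast at the primitive streak.

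The 8 genes did not move as a unit. In the authors' deposited table, 3 of them were negative at an adjusted p-value under 0.05 (Twist1, Cdh2 and Zeb2), against 15.9% of all genes called negative. Only Fn1 was called positive in the authors' deposited table, where 14.6% of all genes were, and Vim, Zeb1, Snai1 and Snai2 were not called in either direction. All 4 called members also exceeded an absolute log2 fold change of 0.5. Past that limit, 21.5% of all genes were called in either direction, 9.4% on the positive and 12.1% on the negative side. Past an absolute value of 1 were Twist1 and Cdh2, beside 13.3% of all genes, with 5.59% positive and 7.69% negative. The median log2 fold change of the 8 members in the authors' deposited table was -0.52, beside 0.0097 over all genes. The smallest and largest values were -2.54 for Twist1 and 0.58 for Fn1 in the authors' deposited table. In RNA from sorted populations, fewer cells expressing a gene and less RNA per cell cannot be told apart.

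**Figure D1:**
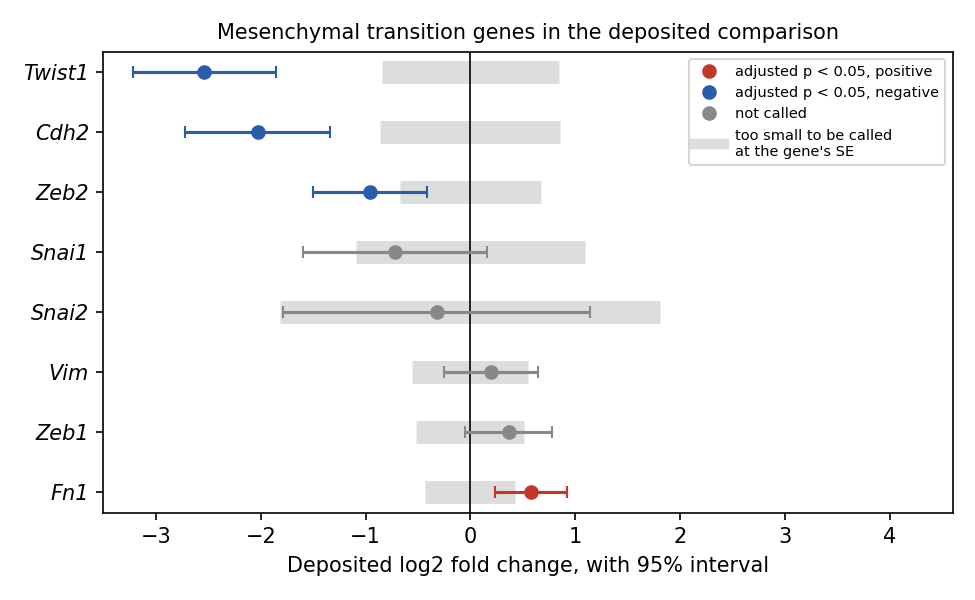
Deposited log2 fold change of each of the 8 genes (x axis, points) with its 95% interval (bars), coloured by call, and the span in which a value would be too small to be called given the gene's standard error (grey). The intervals of Twist1, Cdh2 and Zeb2 lie below 0 and that of Fn1 above it, while Snai2 has the widest interval.

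Abundance set these genes far apart. Per kilobase of exon, the mean normalized count over libraries in the authors' deposited table was 2212 for Fn1 and 928 for Vim. Cdh2 followed at 50.7, Zeb1 at 35.3, Twist1 at 31.9 and Snai1 at 17.2 normalized counts per kilobase in the authors' deposited table. The lowest were Snai2 at 4.27 and Zeb2 at 4.15 normalized counts per kilobase in the authors' deposited table. The matrix and filament genes were thus the most abundant members. By mean normalized count, Cdh2 and Zeb1 lay near the middle of all genes in the authors' deposited table, at percentiles 50.5 and 48.8, and Snai1 and Snai2 near the low end, at 19.7 and 5.08. Lengths are the union of all annotated exons, which for Zeb2 comes to 19.9 kb and lowers its value per kilobase. The spread of these levels over samples is not analysed here, so the order of close neighbours (Cdh2, Zeb1 and Twist1, or Snai2 and Zeb2) is not established.

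**Figure D2:**
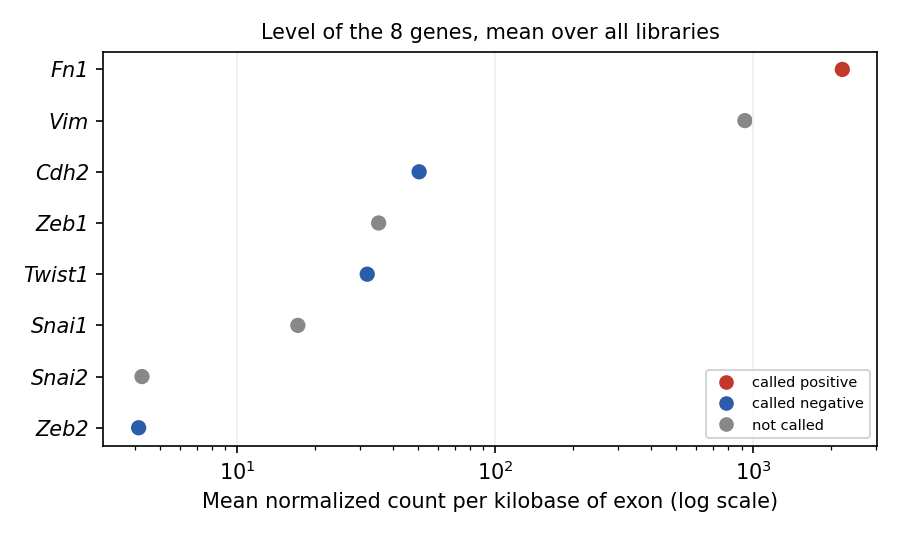
Mean normalized count per kilobase of exon for each gene (x axis, log scale), as 1 pooled value per gene with no error available, coloured by call. Fn1 and Vim stand far above the other 6 genes, and Snai2 and Zeb2 are the lowest.

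The standard errors set how large a difference had to be to be called. In the authors' deposited table, the smallest absolute Wald statistic (fold change divided by its standard error) among called genes was 2.43. At the standard errors of the authors' deposited table, Fn1 could therefore be called from an absolute log2 fold change of 0.43, Zeb1 from 0.51, Vim from 0.55 and Zeb2 from 0.67. Twist1 and Cdh2 needed 0.84 and 0.86, Snai1 needed 1.09 and Snai2 needed 1.81 at the standard errors of the authors' deposited table. Of genes with a mean normalized count under 50 in the authors' deposited table, as Snai1 and Snai2 have, 20.7% were called in either direction. The called share was 36.4% at mean counts from 50 to under 1000 and 31.0% at 1000 or more in the authors' deposited table, and 30.5% over all genes.

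**Figure D3:**
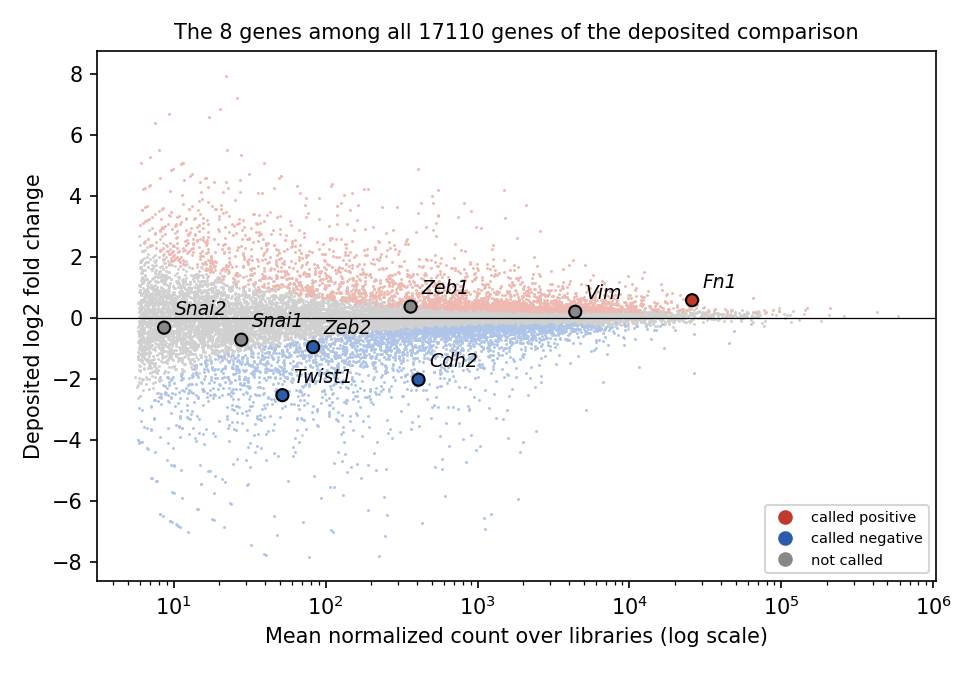
Deposited log2 fold change (y axis) against mean normalized count over libraries (x axis, log scale) for all 17110 genes (small points), with the 8 genes as large labelled points coloured by call. Snai1 and Snai2 lie at the low-count end, where fold changes of uncalled genes scatter widely, and Twist1 and Cdh2 lie well below the band of uncalled genes.

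Among the products of the mesenchymal state, N-cadherin was the one that differed most. Cdh2 (ENSMUSG00000024304) had a mean normalized count of 408.8 and a log2 fold change of -2.03 ± 0.35 (adjusted p-value 1.42e-07 in the authors' deposited table). This is a 4.08-fold difference between the compared groups in the authors' deposited table, with a 95% interval from 2.52 to 6.61. Cdh2 held rank 681 among all genes ordered from the most negative Wald statistic of the authors' deposited table.

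E-cadherin (Cdh1), the epithelial counterpart that is exchanged for N-cadherin in the classical cadherin switch, was not called. Its log2 fold change was 0.11 ± 0.10 (adjusted p-value 0.457 in the authors' deposited table), and its 95% interval ran from -0.090 to 0.31. The log2 fold change of Cdh1 exceeded that of Cdh2 by 2.14 in the authors' deposited table, with a standard error of 0.37 if the estimates are independent. Per kilobase of exon, Cdh1 was 71.4 times as abundant as Cdh2 over the libraries pooled in the authors' deposited table. Of 5 cadherins listed as classical, Cdh2 and Cdh4 (R-cadherin) were called negative in the authors' deposited table, where 15.9% of all genes were. This list was drawn up after values were seen, so the count is a description. Cdh4 stood at -1.10 ± 0.44 and passed narrowly, with an adjusted p-value of 0.0439 in the authors' deposited table, above the stricter threshold of 0.01. Its mean normalized count was 69.6. The other 3, Cdh1, Cdh3 and Cdh15, had log2 fold changes between 0.08 and 0.21 in the authors' deposited table and were not called.

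Vinculin and plakoglobin were the calls among proteins that join either cadherin to the cytoskeleton. Of 7 cadherin partners with a row (8 listed) in the authors' deposited table, 1 was called positive, 1 was called negative and the median log2 fold change was 0.09, with shares of 14.3% each that lie close to those over all genes (14.6% positive and 15.9% negative). Vinculin (Vcl), an actin-binding junction protein, was negative at -0.81 ± 0.19 in the authors' deposited table. Plakoglobin (Jup), a catenin of junctions and desmosomes, was positive at 0.41 ± 0.14 in the authors' deposited table. Its adjusted p-value rose to 0.0805 when all values were shifted so that ribosomal protein genes, with a median of 0.093, lay at 0. Beta-catenin (Ctnnb1) stood at 0.03 and alpha-catenin (Ctnna1) at 0.09 in the authors' deposited table, and with the same centring both turned slightly negative, at -0.062 and -0.004, again without a call.

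Fibronectin moved against N-cadherin. Fn1 (ENSMUSG00000026193), the matrix ligand of several integrins, had a mean normalized count of 25847, higher than 99.0% of genes in the authors' deposited table. Its log2 fold change was 0.58 ± 0.18 (adjusted p-value 0.00523 in the authors' deposited table). This is a 1.49-fold difference in the authors' deposited table, with a 95% interval from 1.17 to 1.90.

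Integrin subunits that bind fibronectin differed in sign and in call. The alpha subunit of the principal fibronectin receptor, Itga5, was positive like its ligand, at 0.53 ± 0.16 (adjusted p-value 0.00438 in the authors' deposited table). Its beta partner Itgb1 was negative at -0.90 ± 0.12 (adjusted p-value 9.8e-12 in the authors' deposited table). Itgav, the alpha subunit of another fibronectin-binding pair, stood at -0.98 ± 0.15 in the authors' deposited table. The scarcer Itga4 and Itgb3 were negative in sign but not called, at -0.50 ± 0.59 and -0.38 ± 0.58 in the authors' deposited table. Of the 10 fibronectin receptor and matrix genes in the authors' deposited table, 6 were called negative and 1 positive, against 15.9% and 14.6% of all genes. The median log2 fold change of these 10 genes was -0.78. The matricellular protein thrombospondin-1 (Thbs1) was the most negative of them at -5.85 ± 0.62 in the authors' deposited table. Fbn1 (fibrillin-1), Sdc4 (a heparan sulfate proteoglycan) and Tnc (tenascin-C) were the other negative calls. Tnc had a mean normalized count of only 7.08 in the authors' deposited table. Whether a scarce gene such as Tnc was at 0 in all libraries of a group is not analysed here, so its fitted fold change is not a bound.

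Vimentin was abundant and not called. Vim (ENSMUSG00000026728) had a mean normalized count of 4399 and a log2 fold change of 0.20 ± 0.23 (adjusted p-value 0.571 in the authors' deposited table). Its 95% interval in the authors' deposited table, from -0.25 to 0.65, leaves room for a change of up to 1.56-fold on the positive side.

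Of 10 genes listed as intermediate filament relatives, 5 were called in either direction, against 30.5% of all genes. Nes, Krt8 and Krt18 had the largest differences, and both keratins are counted again in the epithelial list below. Nestin (Nes), which co-assembles with vimentin in progenitor cells, stood at -4.07 ± 0.23 (adjusted p-value 1.24e-69 in the authors' deposited table). The log2 fold change of Vim exceeded that of Nes by 4.27 in the authors' deposited table, with a standard error of 0.32 if the estimates are independent. The keratin pair of simple epithelia, Krt8 and Krt18, was also negative, at -4.39 and -3.96 with standard errors of 0.52 and 0.51 in the authors' deposited table. Lmna, which encodes lamins A and C of the nuclear envelope, was the 1 positive call among the 10 filament relatives in the authors' deposited table, at 0.89 ± 0.13. Of the other members of that list in the authors' deposited table, Synm (synemin) was negative at -0.91 and 5 were not called.

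Twist1 showed the clearest difference of the transcription factors. Twist1 (ENSMUSG00000035799) had a mean normalized count of 51.9 and a log2 fold change of -2.54 ± 0.35 (adjusted p-value 7.73e-12 in the authors' deposited table). The corresponding ratio in the authors' deposited table is 5.80-fold, with a 95% interval from 3.62 to 9.31. By Wald statistic it was the 363rd most negative gene of the authors' deposited table.

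Twist1 binds E-boxes as a dimer with an E protein, and Id proteins compete for those partners. The E proteins went in different directions: Tcf12 was negative at -0.99 ± 0.11, and Tcf4 positive at 0.41 ± 0.12, in the authors' deposited table. Tcf3 was not called, at 0.09 ± 0.08 in the authors' deposited table. The Id genes Id2 and Id3 were negative at -0.98 and -0.76 with standard errors of 0.27 and 0.24 in the authors' deposited table. Id1 and Id4 stood at -0.51 and -0.40 in the authors' deposited table and were not called. This list was drawn up after the values of the 8 genes were seen.

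The Zeb paralogs, large repressors with zinc-finger clusters at both ends, had values of opposite sign. Zeb2 (ENSMUSG00000026872) had a mean normalized count of 82.7 and a log2 fold change of -0.96 ± 0.28 (adjusted p-value 0.00287 in the authors' deposited table). This corresponds to a 1.94-fold difference in the authors' deposited table, with a 95% interval from 1.33 to 2.83. Zeb1 (ENSMUSG00000024238) had a mean normalized count of 362.5 and a positive value without a call, at 0.37 ± 0.21 (adjusted p-value 0.192 in the authors' deposited table). Zeb1 minus Zeb2 was 1.32 on the log2 scale in the authors' deposited table, with a standard error of 0.35 if the estimates are independent and a 95% interval from 0.64 to 2.01. No test was made of this difference, since the covariance of estimates from the same libraries is unknown.

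The Snail genes were scarce and neither was called. Snai1 (ENSMUSG00000042821) had a mean normalized count of 27.8 and a log2 fold change of -0.72 ± 0.45 (adjusted p-value 0.237 in the authors' deposited table). Its 95% interval in the authors' deposited table ran from -1.60 to 0.16. Snai2 (ENSMUSG00000022676), also called Slug, had a mean normalized count of 8.64 and a log2 fold change of -0.32 ± 0.75 (adjusted p-value 0.80 in the authors' deposited table). The 95% interval of Snai2, from -1.79 to 1.14 in the authors' deposited table, does not separate a decrease from an increase. Snai1 minus Snai2 was -0.40 on the log2 scale in the authors' deposited table, with a standard error of 0.87. Their paralog Snai3, outside the 8, was better measured and called negative at -0.94 ± 0.26 in the authors' deposited table.

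Other transcription factors of the programme had few calls, in both directions. Of 12 listed, 7 had a row in the authors' deposited table, with 2 called positive, 1 negative and a median log2 fold change of -0.04. Over all genes, 14.6% were called positive and 15.9% negative, so so few calls in 7 genes describe no direction of the list. The positive genes were Klf8, a Krueppel-like repressor of Cdh1, at 0.86 ± 0.17, and Tcf4 in the authors' deposited table. The negative gene was Snai3. Twist2, Prrx1, Foxc2, Gsc and Sox9 had no row under these names in the authors' deposited table.

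The corepressors through which Snail and Zeb factors act were all abundant, and their calls were about as frequent as those of all genes. Of the 10 in the authors' deposited table, 2 were called positive and 2 negative, with log2 fold changes between -0.42 and 0.32 and a median of 0.09. Over all genes, 14.6% were called positive and 15.9% negative. The histone demethylase Kdm1a (LSD1), which the Snail N-terminus recruits, was positive at 0.32 ± 0.085 in the authors' deposited table. Its partner in the CoREST complex, Rcor1, was negative at -0.42 ± 0.094 in the authors' deposited table. Sin3a was positive at 0.24 and the Zeb corepressor Ctbp1 negative at -0.25 in the authors' deposited table. The call of Sin3a was lost after centring on the ribosomal protein genes, with an adjusted p-value of 0.0638.

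The E-box that Snail and Zeb factors bind reads CACCTG, or CAGGTG on the other strand. It was searched on both strands in RefSeq promoter windows of build GRCm38.p6 that reach from 250 bases before to 50 bases after a gene start. The element is a subset of the general E-box CANNTG. Windows were matched for 4 of the 8 members, Vim, Zeb2, Snai1 and Twist1, and 1 of these genes, Snai1, held CACCTG. No CANNTG of any kind was found in the windows of the other 3 genes. Of all 32851 windows, 20.2% held CACCTG and 72.3% held CANNTG. Among the 20 epithelial genes listed as targets or partners of this repression, 13 had a window and 11 of these held CACCTG, in 13 of 16 windows, some of which overlap. In the 250 bases before the start alone, 9 of the 13 genes held it, in 10 of 16 windows, against 17.2% of all windows. Since these genes were listed as targets or partners of the repression, this is a description and not a test. Counts per gene are also not like the shares of all windows, since some genes have several. Of the uncalled epithelial genes with a window, Cldn3 and Cldn4 held the element in the whole window and Ovol2 did not.

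The stretches below show the 250 bases before the start (RefSeq, GRCm38.p6) for Snai1, which holds the element, and for Twist1, the most negative member, which does not. They are followed by 3 epithelial genes that were called negative and were chosen because a window of theirs holds it more than once. A second window of Cldn7 and the window of Tjp1, also called negative, hold none. All are written 5′ to 3′ on the strand of the gene with CACCTG or CAGGTG in capitals, and a match is a description of letters, not a shown binding site.
Snai1 (chr2:167537945-167538194, + strand): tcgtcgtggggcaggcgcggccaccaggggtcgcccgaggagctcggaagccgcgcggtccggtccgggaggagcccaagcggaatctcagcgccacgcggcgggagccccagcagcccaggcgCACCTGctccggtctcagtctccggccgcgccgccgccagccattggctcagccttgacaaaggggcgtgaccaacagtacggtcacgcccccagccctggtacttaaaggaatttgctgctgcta
Twist1 (chr12:33957421-33957670, + strand): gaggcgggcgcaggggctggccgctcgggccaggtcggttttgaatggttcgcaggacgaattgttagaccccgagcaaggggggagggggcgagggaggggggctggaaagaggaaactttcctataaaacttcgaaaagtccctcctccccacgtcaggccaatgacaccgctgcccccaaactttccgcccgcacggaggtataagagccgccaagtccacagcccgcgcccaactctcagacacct
Epcam (chr17:87635729-87635978, + strand): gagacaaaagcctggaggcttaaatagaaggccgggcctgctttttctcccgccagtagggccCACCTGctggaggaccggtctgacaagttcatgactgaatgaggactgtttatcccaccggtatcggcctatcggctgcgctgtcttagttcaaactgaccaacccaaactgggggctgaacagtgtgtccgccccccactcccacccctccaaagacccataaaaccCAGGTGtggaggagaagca
Cldn7 (chr11:69965171-69965420, + strand): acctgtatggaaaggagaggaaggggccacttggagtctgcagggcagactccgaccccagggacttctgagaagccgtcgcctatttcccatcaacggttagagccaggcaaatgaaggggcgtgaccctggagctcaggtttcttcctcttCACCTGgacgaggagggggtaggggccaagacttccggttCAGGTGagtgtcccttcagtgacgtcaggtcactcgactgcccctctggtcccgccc
Crb3 (chr17:57061951-57062200, + strand): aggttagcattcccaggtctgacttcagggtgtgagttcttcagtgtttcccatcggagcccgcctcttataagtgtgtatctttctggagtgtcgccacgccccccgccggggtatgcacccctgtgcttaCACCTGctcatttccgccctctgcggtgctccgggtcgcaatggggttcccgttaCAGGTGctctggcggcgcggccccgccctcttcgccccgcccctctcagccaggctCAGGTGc
In Snai1 the element begins 126 bases before the gene start. Crb3, a polarity gene, has the element 3 times in this stretch, and Epcam and Cldn7 have it 2 times each.

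Most epithelial genes were negative too. Of the 20 in the authors' deposited table, 12 were called negative and 1 positive, against 15.9% and 14.6% of all genes. The median log2 fold change of these 20 genes was -0.57. The calls with the smallest p-values were Krt19, a keratin, at -4.73 ± 0.31 and the tight-junction claudin Cldn7 at -2.27 ± 0.18 in the authors' deposited table. Epcam, an adhesion molecule of embryonic stem cells, was negative at -0.37 ± 0.10, and Crb3 at -0.92 ± 0.30, in the authors' deposited table. The 1 positive gene in the authors' deposited table was Grhl2, a transcription factor that maintains epithelia, at 0.60 ± 0.21. Its adjusted p-value was 0.0512 after centring on the ribosomal protein genes. Without the keratins, 9 of the remaining epithelial genes were called negative in the authors' deposited table.

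Transforming growth factor beta is the best known inducer of Snail, Zeb and Twist genes. Of 16 genes of this pathway in the authors' deposited table, 10 were called negative and 1 positive, against 15.9% and 14.6% of all genes. The median log2 fold change of these 16 genes was -0.47. All 3 ligands were negative, with Tgfb2 at -4.07, Tgfb3 at -1.99 and Tgfb1 at -0.78 and standard errors of 0.66, 0.82 and 0.24 in the authors' deposited table. Tgfb3 passed narrowly, with an adjusted p-value of 0.0486 and a mean normalized count of 11.4 in the authors' deposited table, and was not called at a threshold of 0.01. The receptor Tgfbr2 stood at -2.68 ± 0.44 and the coreceptor Tgfbr3 at -1.72 ± 0.45 in the authors' deposited table. The inhibitor Smad7, itself a target of the pathway, was negative at -0.77 ± 0.12 in the authors' deposited table. Of the signal transducers, Smad3 and Smad4 were negative at -0.83 and -0.46 in the authors' deposited table, and Smad2 was not called at 0.14. The positive gene was Tgfbi, a secreted matrix protein named for its induction by the ligand, at 2.08 ± 0.42 in the authors' deposited table.

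Further mesenchymal genes outside the 8 were mostly negative. Of 14 with a row (18 listed) in the authors' deposited table, 11 were called negative, 1 positive, and the median log2 fold change was -1.67. The contractile genes Tagln and Cnn1 stood at -5.96 and -3.21 with standard errors of 0.50 and 0.30 in the authors' deposited table. The only positive call was the collagen receptor Ddr2, at 3.58 ± 0.82 and a mean normalized count of 12.6 in the authors' deposited table. Counting only genes with a mean normalized count of at least 50 left out Ddr2 and kept 7 negative calls in the authors' deposited table. The uncalled genes Pdgfrb and Thy1 also stayed, so the lower number reflects fewer genes counted. Over all pathway lists together, 45 of 92 genes were called negative and 10 positive in the authors' deposited table, whose shares over all genes were 15.9% and 14.6%. The lists were written with earlier results of these data known, so this contrast is a description and not independent support.

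**Figure D4:**
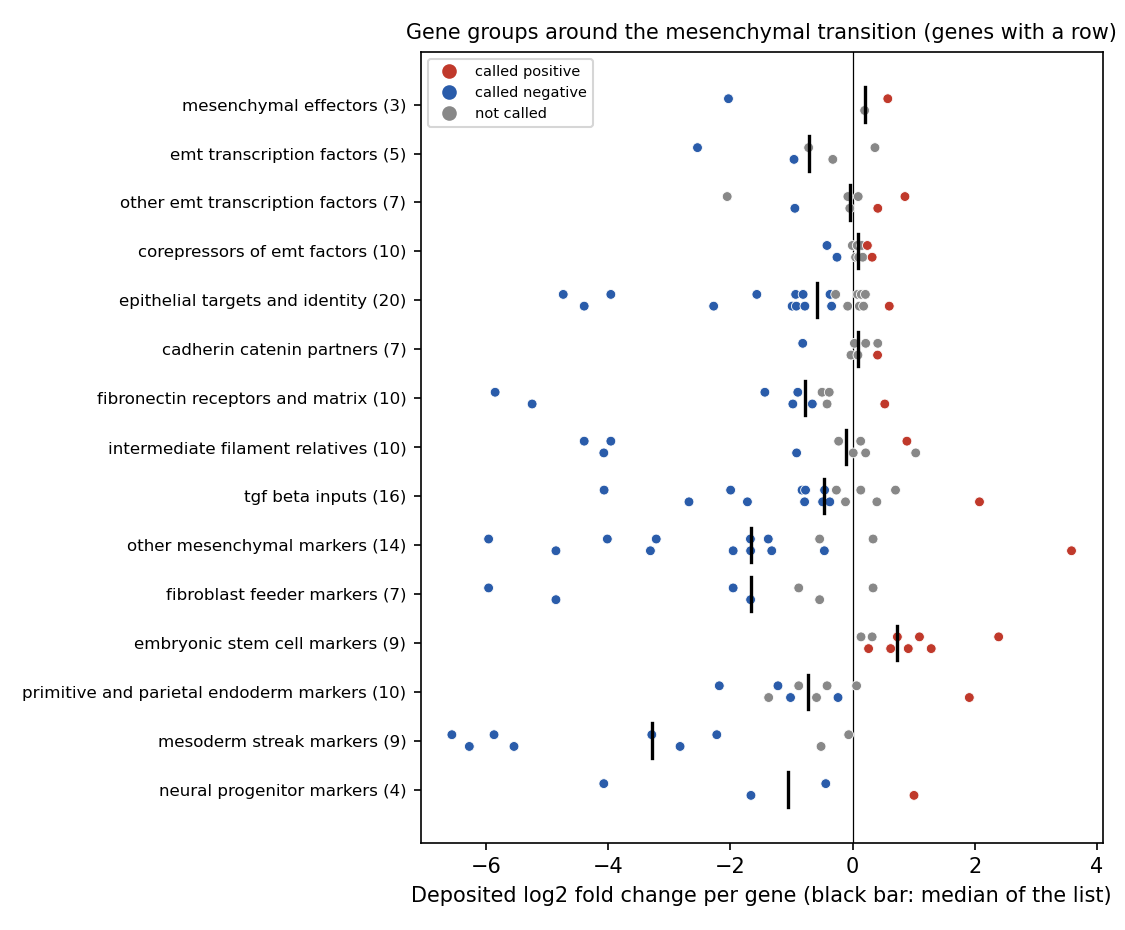
Deposited log2 fold change (x axis) of every gene with a row, as points coloured by call, in the groups of genes around the mesenchymal transition and the cell type marker lists (rows, number of genes in parentheses), with the median of each list as a black bar. The median was -1.67 for the other mesenchymal markers, -0.57 for the epithelial list and 0.73 for the embryonic stem cell markers.

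Marker lists of other cell types gave the following values, beside shares over all genes of 14.6% called positive and 15.9% called negative. Of 9 embryonic stem cell markers with a row (10 listed) in the authors' deposited table, 7 were called positive and 0 negative, with log2 fold changes from 0.14 to 2.39, and Pou5f1 had a mean normalized count of 32810, which matches the labelled cell type. The largest of these values were 2.39 for Tbx3 and 1.29 for Dppa5a in the authors' deposited table. Of 9 primitive streak and mesoderm markers with a row (10 listed) in the authors' deposited table, 7 were called negative and 0 positive, with a median of -3.28. Among them T (brachyury) stood at -6.56 ± 0.79 and Lhx1 at -6.27 ± 1.42 in the authors' deposited table. Of 12 fibroblast markers, 7 had a row in the authors' deposited table, with 4 called negative and values from -5.96 for Tagln to 0.34 for Thy1. These 4, Col1a1, Col1a2, Acta2 and Tagln, were already counted among the further mesenchymal genes above, so the 2 lists are not separate patterns. The defining fibroblast genes Dcn, Lum, Postn, Col3a1 and Fap had no row under these names in the authors' deposited table. Col1a1 and Col1a2 had mean normalized counts of only 20.9 and 10.1 there. Of 10 primitive and parietal endoderm markers with a row (12 listed) in the authors' deposited table, 4 were called negative and 1 positive, with Dab2 at -2.18 and Lama1 at 1.91. Of 4 neural progenitor markers with a row (10 listed) in the authors' deposited table, 3 were called negative, among them Nes and Sox3 (-1.66), and Sox1 was positive at 1.01. The part of these cell types in the values of Twist1, Cdh2, Zeb2 and Fn1 was not tested.

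Reads of overlapping genes can add to a count where strand was not used, and the strand setting is not given in the sources used here. GENCODE M21 places genes on the opposite strand over Cdh2, Fn1, Zeb1 and Zeb2, including the antisense transcript Zeb2os. Only the one over Fn1, Apol7d, had a row in the authors' deposited table, with a mean normalized count of 9.27 beside 25847 for Fn1.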

How the data were processed

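Polyadenylated RNA of 6 samples was sequenced as paired ends on a DNBSEQ instrument, per the labels' protocols. Per the submitters' processing notes, FastQC 0.12.1, Trimmomatic 0.39, STAR 2.7.11b, RSEM 1.3.3, DESeq2 1.45.3 and build GRCm39 were used, with roles not stated. The authors deposited a DESeq2 comparison whose mean normalized count per gene is a signal pooled over libraries, whose fold change and standard error are on the log2 scale, whose Wald statistic is a score, and whose p-value and adjusted p-value are used as deposited. The Wald statistic differed by at most 5.77e-07 from the fold change over its standard error. A table with 6 columns of counts was not used, since its column names match no sample label, so depth per library is unknown here and the planned edgeR fit was not run.

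A gene was called at a deposited adjusted p-value under 0.05. Intervals are at 95%, from the deposited standard error. Exon lengths and overlaps come from GENCODE M21 (build GRCm38), matched by gene ID. Alternatives were recomputed in Python 3.11.15 with scipy 1.17.1. All but the fold change limit of 1 were also run on simulated data, where recovery was required only of the main calls. Noise in that simulation came from the deposited standard errors, so it does not check them. The members and lists were chosen with earlier results of these data known. Named were the 8 members, the 2 called genes with the smallest p-value per list and direction, Cdh1 and Epcam. Other genes were named after their values were seen, as were the lists of classical cadherins and Twist1 partners.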

Additional observations from a re-analysis of the deposited data

How the results depend on the processing

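No paired analysis was possible because no column of counts could be tied to a replicate and the authors' comparison gives 1 value per gene. For the same reason the planned fits with edgeR or DESeq2, with other filters on counts, and without each replicate were not run, so whether 1 library decides a value is not answered here. The 3 negative and 1 positive calls among the 8 members held at an adjusted p-value under 0.01 and at an absolute log2 fold change over 0.5. They also held with a recomputed adjustment, with a minimum mean count of 50 (which removes Snai1 and Snai2), and with both centrings. Centred on the ribosomal protein genes, Fn1 was weaker, at 0.48 with an adjusted p-value of 0.0225. With that centring it would pass neither the limit of 0.5 nor that of 0.01. At an absolute log2 fold change over 1, which 5.59% of all genes passed on the positive and 7.69% on the negative side, Fn1 (0.58) and Zeb2 (-0.96) were no longer called, leaving 0 positive and 2 negative members. This follows from the limit itself. Of 54 values of single members under an alternative, 52 kept direction and call, and of 630 values of the other pathway genes 568 did, while 53 lost a call, 3 gained one and 6 changed sign. Most of these outcomes were fixed in advance. The limits of 0.01, 0.5 and 1 reuse the deposited values, so no direction could change and no call could be gained. The recomputed adjusted p-values differed from the deposited ones by at most 0.000271. Such counts are therefore no measure of robustness. Over all pathway lists, the 10 positive calls became 6 at the limit of 0.5 and 2 at the limit of 1, and the 45 negative calls became 23 at the limit of 1. Counting only other mesenchymal genes at a mean count of 50 or more left 7 of 11 negative calls, because fewer genes were counted. Centring on the ribosomal protein genes turned 6 uncalled genes slightly negative, namely Ajuba (-0.042), Cdh3 (-0.009), Ctnna1 (-0.004), Ctnnb1 (-0.062), Ezh2 (-0.016) and Plec (-0.082). It also moved the positive share of all calls from 47.8% to 34.7%.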
